A study of Mus musculus with 8 samples.

Results

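Immunoglobulin variable (V) segments were followed in RNA from the brachiocephalic artery, the artery off the aortic arch that is a common site of plaques in mice lacking ApoE. The members were selected on their deposited level: rows named as heavy, kappa or lambda V segments and listed above 0 TPM (a transcript level corrected for gene length and library total) in any of the 8 libraries. This rule kept 178 of the 348 V segment rows, in a table of 49585 genes. They comprised 86 of 185 heavy chain rows on chromosome 12, 89 of 160 kappa rows on chromosome 6 and all 3 lambda rows on chromosome 16 (GRCm38). The rule used detection itself, so that a member was detected somewhere is no result. Just inside the rule, 28 members rested on 1 read over all libraries, the lowest being Ighv3-8 at 0.111 TPM. The 170 rows outside it were at 0 in every library.

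The study asked what blocking Dll1, a ligand of Notch receptors, does to gene expression in this artery. The Dll1 antibody group held 4 libraries from ApoE-deficient mice injected intraperitoneally with 250 micrograms of blocking antibody (clone HMD1-5) 2 times a week. The IgG group held 4 libraries from ApoE-deficient mice given non-immune IgG at the same dose and by the same route. The high-fat diet of both groups began at 12 weeks. The labels give no sex, strain background or length of treatment, and they do not say whether a library stands for 1 animal, so a p-value reflects only the spread among these libraries, which may be technical. The table's headers place 2 libraries of each group in a set named 076 and 2 in a set named 045. The labels do not say what these numbers stand for. The antibody libraries are D1IA and D2IA in each set, and the IgG libraries are G1IA and G2IA in set 076 and C1IA and C2IA in set 045.

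Recovered reads numbered 11062677 to 13816415 per library, but the share of TPM on nuclear protein-coding genes was 21.2% to 24.2% in set 076 and 0.848% to 3.10% in set 045. This left 7422342 to 8070921 protein-coding reads per library in set 076 and 663099 to 2729071 in set 045. Levels are therefore given as scaled TPM, in which nuclear protein-coding genes sum to 1000000 per library, or as RPM, the number of reads per 1000000 protein-coding reads. The 4 smooth muscle genes followed as a check of the tissue (Acta2, Myh11, Tagln and Cnn1) summed to 3408 to 4405 scaled TPM in set 076 and to 456 to 821 in set 045. D1IA of set 076 stood apart in skeletal muscle genes, with a summed 3084 scaled TPM of Acta1, Mylpf, Pvalb and Tnni2 against 1.63 to 213 in the other 7 libraries. The summed V level and the calls of set 076 are given with and without it.

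V segments are the gene pieces that encode most of the antigen-binding end of an antibody chain. In a developing B cell V(D)J recombination joins 1 heavy V segment to D and J segments and 1 kappa or lambda V segment to a J segment, and the cell's descendants keep that choice. Segments of like sequence form a family, given by the first number in the name, so Igkv1-135 and Igkv1-110 are both of kappa family 1. Plasma cells, the antibody-secreting descendants of B cells, hold very large amounts of immunoglobulin transcripts, and the adventitia of plaque-bearing arteries in ApoE-deficient mice can hold both cell types. In a bulk sample fewer such cells and less immunoglobulin RNA per cell cannot be told apart.

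The segments on which the results turn are shown by stretches of their germline coding sequence, read from the GRCm38 genome in the coding direction (5′ to 3′). The first trio is the kappa family 1 segments with most reads in the IgG libraries of set 076, at chr6:67610363-67610500 (plus strand), chr6:68121682-68121819 (plus strand) and chr6:68271122-68271259 (plus strand), in each case the end of the coding exon that faces the recombination site. Capitals mark the bases not shared by all 3, which were 24 of the 138 compared.

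Igkv1-135: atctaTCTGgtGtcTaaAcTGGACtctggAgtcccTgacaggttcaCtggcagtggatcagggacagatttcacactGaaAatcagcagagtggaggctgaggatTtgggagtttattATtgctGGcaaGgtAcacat

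Igkv1-117: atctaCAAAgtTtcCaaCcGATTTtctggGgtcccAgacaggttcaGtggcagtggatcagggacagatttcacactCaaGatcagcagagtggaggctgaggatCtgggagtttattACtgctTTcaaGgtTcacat

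Igkv1-110: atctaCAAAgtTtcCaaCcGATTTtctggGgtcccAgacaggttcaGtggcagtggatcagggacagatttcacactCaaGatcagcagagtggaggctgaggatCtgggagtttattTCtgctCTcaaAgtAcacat

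The lambda pair shows how alike 2 members can be. These stretches lie at chr16:19085026-19085163 and chr16:19260410-19260547, both on the minus strand, and capitals mark the 4 of 138 bases that differ between them.

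Iglv1: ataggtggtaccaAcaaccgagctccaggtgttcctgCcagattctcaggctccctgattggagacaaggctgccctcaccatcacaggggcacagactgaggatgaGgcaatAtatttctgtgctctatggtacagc

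Iglv2: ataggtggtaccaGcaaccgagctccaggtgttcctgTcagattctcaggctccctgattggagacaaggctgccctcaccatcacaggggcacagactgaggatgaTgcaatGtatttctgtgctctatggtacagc

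The next segments are the 2 heavy segments that led in the IgG libraries of set 076 and the kappa and heavy segments that led in C1IA of set 045. They lie on the minus strand, at chr12:113769852-113769920, chr12:115952538-115952606, chr6:68862282-68862350 and chr12:113948284-113948352. Capitals mark the codon of the last in-frame cysteine, the conserved residue after which the V segment runs into the junction with the next segment.

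Ighv2-9-1: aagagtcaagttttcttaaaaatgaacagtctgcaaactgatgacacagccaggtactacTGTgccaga

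Ighv1-82: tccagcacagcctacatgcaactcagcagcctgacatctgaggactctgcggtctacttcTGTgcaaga

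Igkv1-88: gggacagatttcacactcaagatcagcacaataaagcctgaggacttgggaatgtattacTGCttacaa

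Ighv4-1: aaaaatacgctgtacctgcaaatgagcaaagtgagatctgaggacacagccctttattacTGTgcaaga

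V segment RNA was scarcer in the antibody libraries than in the IgG libraries of set 076, at all 3 loci. D1IA and D2IA gave 408 and 934 V reads, or 55.0 and 116 RPM, against 8695 and 11305 V reads, or 1138 and 1483 RPM, in G1IA and G2IA. The means were 85.3 ± 43.0 RPM with the antibody and 1311 ± 244 RPM with IgG (SD, n = 2 each), and the groups did not overlap. With 2 libraries a side no exact test of a single value can pass the threshold, so this summed level has no test. The ratio of the means was -3.94 on the log2 scale, and -3.50 without D1IA.

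By locus, heavy V reads stood at 18.5 and 43.6 RPM in D1IA and D2IA, against 322 and 332 RPM in G1IA and G2IA. Kappa V reads stood at 35.0 and 71.5 RPM in the antibody libraries, against 586 and 1093 RPM in the IgG libraries. Lambda V reads stood at 1.48 and 0.620 RPM in the antibody libraries, against 230 and 58.0 RPM in the IgG libraries. From reads summed over the libraries of each group, IgG exceeded the antibody by 10.4 times for heavy segments (95% interval 9.44 to 11.4), 15.5 times for kappa (14.5 to 16.7) and 140 times for lambda (85.7 to 245). These intervals cover counting error only, since reads without molecular identifiers are not independent molecules. With each library left out in turn the ratio ranged from 7.5 (without D1IA) to 17.7 (without D2IA) for heavy segments, from 10.9 (without G2IA) to 24.0 (without D2IA) for kappa and from 56.1 (without G1IA) to 233 (without D1IA) for lambda. The heavy and kappa ranges overlapped, and the lambda range lay above both.

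In set 045 the same groups overlapped. V reads numbered 37 and 11 in the antibody libraries D1IA and D2IA, or 55.8 and 6.88 RPM, against 203 and 30 in the IgG libraries C1IA and C2IA, or 121 and 11.0 RPM. The means of 31.3 ± 34.6 RPM with the antibody and 66.1 ± 77.9 RPM with IgG (SD, n = 2 each) differed by less than their spread. The ratio of the means, -1.08 on the log2 scale, turned to 1.51 without C1IA. At 11 to 37 V reads, 3 of these 4 libraries hold too few to describe usage, so segments of set 045 are described mainly from C1IA. C1IA and D2IA of this set also held more of the X-linked RNA Xist than C2IA and D1IA.

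**Figure D1:**
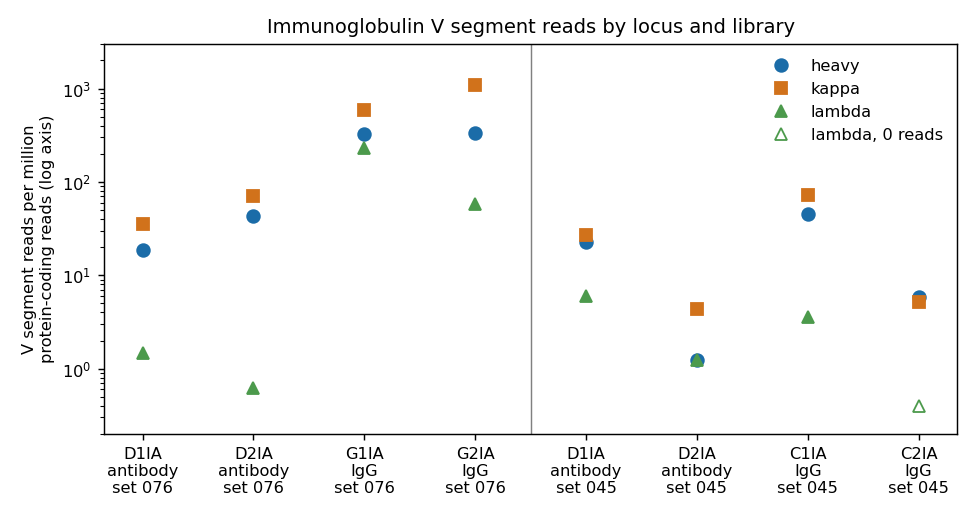
V segment RPM by library on a log axis, with set 076 on the left and set 045 on the right; each point is the sum over the heavy, kappa or lambda segments of 1 library, and the open triangle marks C2IA, which had 0 lambda reads. In set 076 all 3 loci lie lower in D1IA and D2IA than in G1IA and G2IA, while in set 045 the antibody and IgG libraries overlap.

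Kappa segments took most V reads in every library of set 076. Their share was 63.7% (Wilson 95% interval 59.0 to 68.2) in D1IA and 61.8% (58.6 to 64.8) in D2IA, against 51.5% (50.5 to 52.6) in G1IA and 73.7% (72.9 to 74.5) in G2IA. Heavy segments took 33.6% and 37.7% of V reads in the antibody libraries, against 28.3% and 22.4% in the IgG libraries. The IgG libraries thus lay on either side of the antibody libraries in kappa share and below them in heavy share. Lambda segments took 2.70% (1.51 to 4.76) and 0.535% (0.229 to 1.25) in the antibody libraries, against 20.2% (19.4 to 21.1) in G1IA and 3.91% (3.57 to 4.28) in G2IA. The interval of D1IA overlapped that of G2IA, so a difference between these lambda shares was not detectable at the depth of 408 reads. In C1IA of set 045 the shares were 37.4% heavy, 59.6% kappa and 2.96% lambda. C2IA had 0 lambda reads among 30 V reads, which allows a share of up to 10%.

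The IgG libraries of set 076, which had more V reads, showed more segments. D1IA and D2IA of set 076 showed 74 and 61 segments, against 106 and 128 in G1IA and G2IA. Over the 178 members, 24 were seen in all 4 libraries of this set, 63 in an IgG library and no antibody library, 15 in an antibody library and no IgG library, and 10 in neither group. Depth was matched by the number of segments expected when each library is drawn down to 408 reads. On that count D1IA held 74 and D2IA 45.9 segments, against 50.1 in G1IA and 62.0 in G2IA. The order seen at full depth was gone, and the IgG libraries lay between the antibody libraries.

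Evenness also differed more between the antibody libraries than between groups. The effective number of segments, which is the number of equally used segments that would give the same Shannon entropy, was 43.6 in D1IA and 18.6 in D2IA, against 24.95 in G1IA and 31.1 in G2IA. In D1IA 12 segments were needed to reach 50% of V reads, whereas 4 sufficed in D2IA, 5 in G1IA and 6 in G2IA. C1IA of set 045 had an effective number of 24.9 and needed 6. The other libraries of set 045 had effective numbers of 13.2 (D1IA), 6.34 (D2IA) and 10.8 (C2IA), which their 11 to 37 reads cap.

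Every library of set 076 was led by a different segment. Igkv16-104, the only kappa family 16 segment of the table, took 14.0% (10.9 to 17.7) of V reads in D1IA. Igkv5-43 took 24.0% (21.4 to 26.8) in D2IA. Iglv1 took 17.4% (16.7 to 18.3) in G1IA and Igkv19-93 took 14.4% (13.8 to 15.1) in G2IA. In C1IA of set 045 the leader was Igkv1-88 with 41 of 203 reads, or 20.2% (15.3 to 26.2). The leaders of the other libraries of set 045 had 3 to 8 reads, namely Ighv6-6 in D1IA, Igkv5-39 in D2IA and Ighv2-6 in C2IA.

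**Figure D2:**
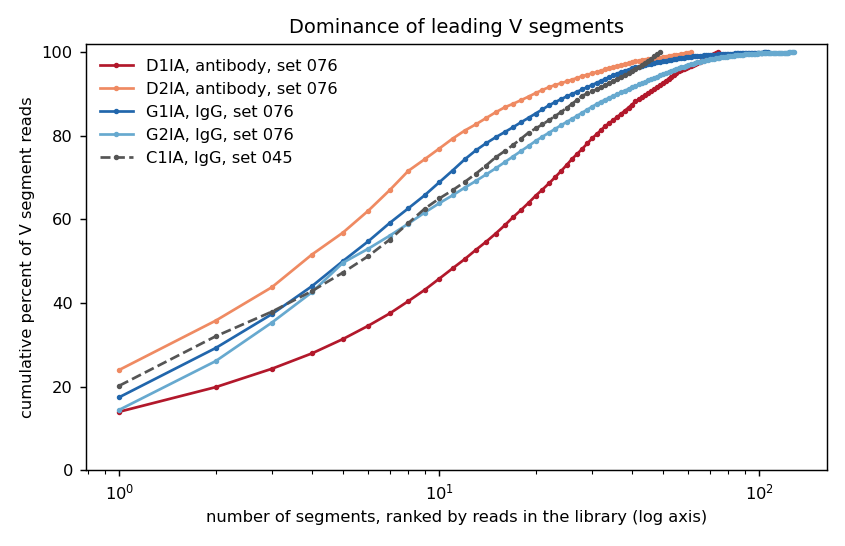
Cumulative percent of V segment reads against the number of segments, ranked by reads within each library (log axis), for the 4 libraries of set 076 and C1IA of set 045; each line is 1 library. Over the leading segments the D1IA line lies lowest, reaching 50% at 12 segments, and the D2IA line highest, reaching 50% at 4 segments, with both IgG libraries of set 076 between them.

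Which segments a library used was compared next, by the overlap of read shares, which is 100% when every segment takes the same share in both libraries. The antibody libraries D1IA and D2IA of set 076 shared 30 segments, 40.5% and 49.2% of theirs, and their read shares overlapped by 17.1%. The IgG libraries G1IA and G2IA shared 81 segments, 76.4% and 63.3% of theirs, and their read shares overlapped by 50.8%. Pairs of an antibody and an IgG library in this set overlapped by 14.8% to 23.6%. Depth differs between these pairs and was not matched in this measure. Among the 10 segments with most reads in each library, D1IA and D2IA had 1 in common, Igkv5-43. G1IA and G2IA had 7 in common, namely Igkv1-135, Igkv1-117, Igkv1-110, Igkv2-137, Ighv2-9-1, Ighv1-82 and Iglv1. These 7 took 59.2% of V reads in G1IA and 34.9% in G2IA.

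**Figure D3:**
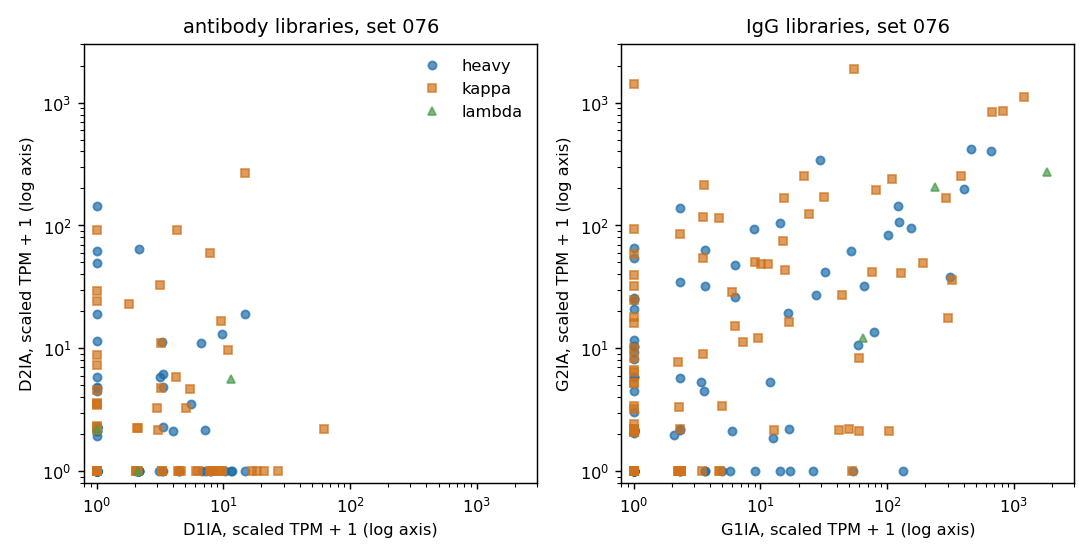
Scaled TPM + 1 of each V segment in the 2 libraries of a group in set 076 (log axes), with antibody libraries in the left panel and IgG libraries in the right; each point is 1 member. In the IgG panel Igkv1-135, Igkv1-117, Igkv1-110 and Ighv1-82 lie near the diagonal and Igkv4-51 and Igkv19-93 far from it, whereas in the antibody panel 30 members were seen in both libraries, 75 in 1 library, which lie along the left or lower edge, and 73 in neither, which lie in the corner.

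Heavy family 1, the largest mouse heavy V family with 46 of its 93 rows detected, took the largest share of heavy reads in all 4 libraries of set 076. It took 41.6% and 60.2% in D1IA and D2IA, against 64.7% and 50.9% in G1IA and G2IA. Heavy family 2 took 0% and 1.14% of heavy reads in the antibody libraries, against 21.9% and 19.7% in the IgG libraries. A count of 0 among the 137 heavy reads of D1IA allows up to 2.19%. Most of the IgG share was 1 segment, Ighv2-9-1. Families 5 and 14 took larger shares in D1IA than in any other library of the set, at 25.5% and 14.6% of its 137 heavy reads. Family 5 took 12.5% in D2IA, against 3.09% in G1IA and 14.8% in G2IA, so its groups overlapped.

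Kappa family 1 showed the widest gap in shares. It took 5.00% and 0.693% of kappa reads in D1IA and D2IA, against 51.9% and 32.3% in G1IA and G2IA. In C1IA of set 045 it took 47.9%, of which most was Igkv1-88, a segment with 0 reads in all 7 other libraries. Kappa family 4, the largest kappa family with 24 of 33 rows detected, took 20.4% and 15.8% in the antibody libraries, against 25.3% and 20.2% in the IgG libraries, and the groups overlapped. Family 5 led D2IA with 39.0% of kappa reads, against 5.00% in D1IA and 0.558% and 2.48% in the IgG libraries. Family 16 took 21.9% in D1IA and 0.173% in D2IA, against 0.0893% and 0.300% in the IgG libraries. Family 19, which is Igkv19-93 alone, took 0.769% and 0.520% in the antibody libraries, against 0.938% in G1IA and 19.6% in G2IA.

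**Figure D4:**
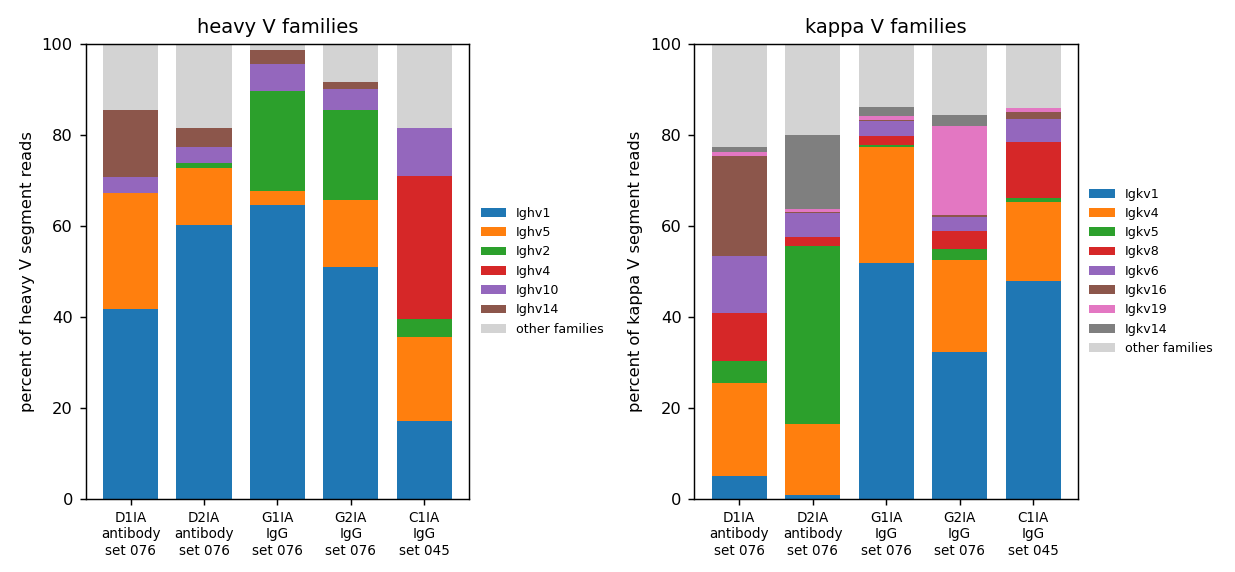
Percent of heavy (left) and kappa (right) V segment reads by V family, for the libraries with at least 203 V reads; each bar is 1 library and sums to 100%. Heavy family 2 takes 1.14% or less in the antibody libraries of set 076 against 19.7% and 21.9% in the IgG libraries, and kappa family 1 takes 5.00% or less against 32.3% and 51.9%.

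Of the kappa segments, Igkv1-135 had 7 and 0 reads in D1IA and D2IA of set 076, or 7.23 and 0 scaled TPM, against 1023 and 1046 reads, or 1208 and 1116 scaled TPM, in G1IA and G2IA. Igkv1-117 had 2 and 2 reads (2.01 and 2.25 scaled TPM) in the antibody libraries, against 707 and 819 reads (814 and 852 scaled TPM) in the IgG libraries. Igkv1-110 had 4 and 2 reads (4.06 and 2.27 scaled TPM) in the antibody libraries, against 581 and 798 reads (674 and 837 scaled TPM) in the IgG libraries. For each of the 3 the IgG libraries lay close together and far above both antibody libraries. In set 045 Igkv1-135 had 1 and 0 reads in the antibody libraries and 12 and 0 in the IgG libraries, Igkv1-117 had 5 reads in C1IA alone, and Igkv1-110 had none.

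Other kappa segments were uneven within a group. Igkv4-51 had 0 reads in 7 libraries and 1317 reads, or 1405 scaled TPM, in G2IA. Igkv19-93 had 2 and 3 reads in the antibody libraries of set 076, against 42 reads in G1IA and 1631 in G2IA. Igkv5-43 had 13 and 224 reads in D1IA and D2IA, against 25 and 153 in G1IA and G2IA. In these segments 1 library held most of the group's reads. For Igkv5-43 the groups overlapped, and for Igkv4-51 G1IA was at 0 like both antibody libraries. Igkv16-104 had 57 and 1 reads in the antibody libraries, against 4 and 25 in the IgG libraries. Igkv3-4 was at 0 in both antibody libraries, against 62 and 165 reads in the IgG libraries, and Igkv2-137 had 1 and 24 reads, against 412 and 300.

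Among heavy segments, Ighv2-9-1 was at 0 reads in both antibody libraries of set 076 and in all 4 libraries of set 045, against 523 and 352 reads, or 659 and 401 scaled TPM, in G1IA and G2IA. Ighv1-82 had 6 and 0 reads (6.32 and 0 scaled TPM) in D1IA and D2IA, against 381 and 381 reads (459 and 415 scaled TPM) in G1IA and G2IA, and was at 0 in set 045. Ighv1-26 had 1 and 49 reads in the antibody libraries, against 304 and 166 in the IgG libraries. These 3 did not overlap between the groups of set 076. Ighv1-58, in contrast, had 0 and 110 reads in D1IA and D2IA, against 2 and 26 in G1IA and G2IA. Ighv7-1 had 0 and 49 reads in D1IA and D2IA, against 0 and 46 in G1IA and G2IA. Ighv1-52 was seen in D1IA alone, with 12 reads, and Ighv14-4 had 12 and 14 reads in the antibody libraries, against 1 and 28 in the IgG libraries.

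The 3 lambda segments lay in the same direction in set 076. Iglv1 had 10 and 4 reads (10.4 and 4.65 scaled TPM) in the antibody libraries, against 1517 and 254 reads (1805 and 273 scaled TPM) in the IgG libraries. Iglv2 had 1 and 0 reads (1.11 and 0 scaled TPM), against 188 and 178 reads (239 and 204 scaled TPM). Iglv3 had 0 and 1 reads, against 52 and 10. Iglv2 was thus even between the IgG libraries, and Iglv1 was not. In set 045 lambda segments had 4 and 2 reads in the antibody libraries, against 6 and 0 in the IgG libraries.

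**Figure D5:**
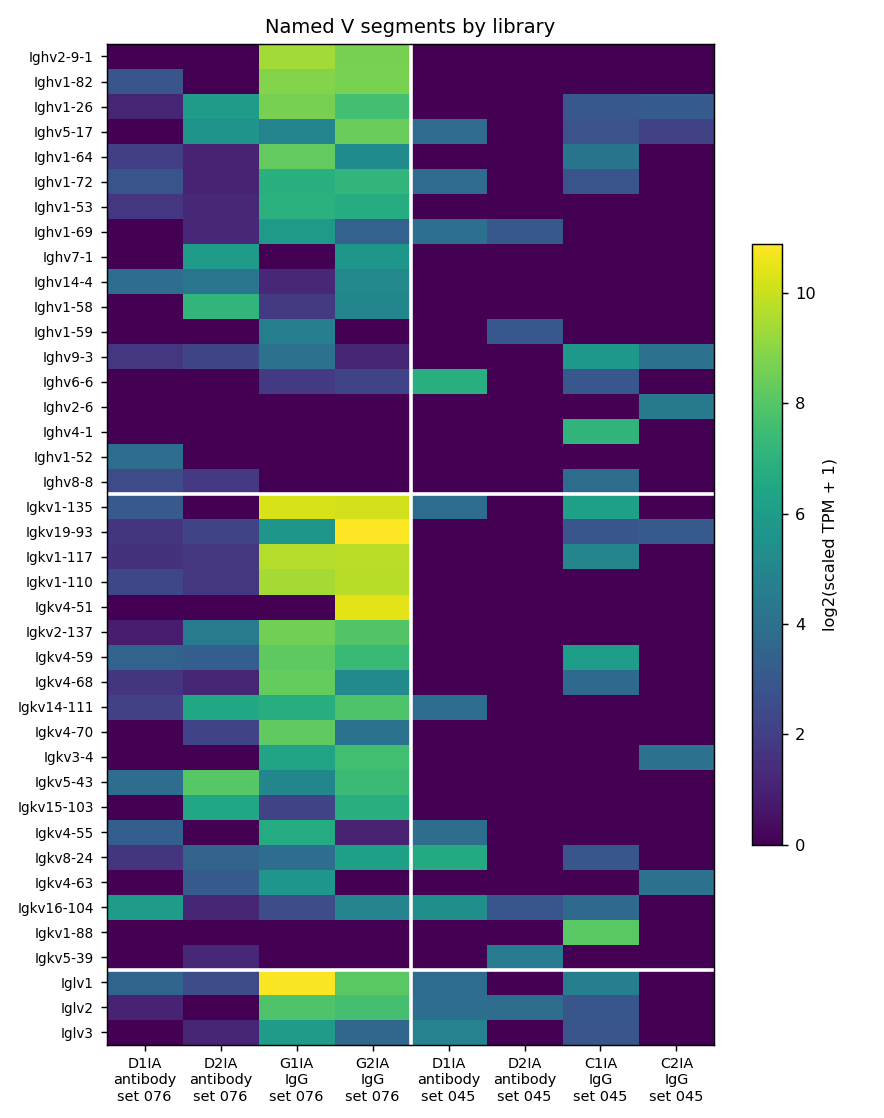
Level of the segments named here, as log2(scaled TPM + 1), by library; rows are segments, with heavy, kappa and lambda blocks from top to bottom, and columns are libraries, with set 076 on the left. Igkv1-135, Igkv1-117, Igkv1-110, Ighv2-9-1, Ighv1-82 and Iglv2 are high in both IgG libraries of set 076 and low in its antibody libraries, whereas Igkv4-51 is at 0 outside G2IA, and Igkv16-104 and Ighv1-58 lie highest in D1IA and D2IA of set 076 with lower levels in other libraries.

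Of the 178 members, 128 had a mean of at least 1 scaled TPM and entered the test across all 18170 genes of that level (limma on log2(scaled TPM + 1), antibody minus IgG). A segment that passed this filter only through its high group had to differ, so counts over the 128 are a description. Within set 076 limma called 2 of 18170 genes lower with the antibody (0.011%) and 0 higher (0.0%), at a Benjamini-Hochberg adjusted p under 0.05. Both called genes were V segments. Ighv2-9-1 had a log2 fold change of -9.01 (SE 0.55, adjusted p = 0.0060) and Igkv1-110 of -7.53 (SE 0.47, adjusted p = 0.0060). From the reads, Ighv2-9-1 was at least 296-fold lower with the antibody, taking 3 reads over the group's libraries as the floor for its count of 0. Igkv1-110 was 233-fold higher in IgG (95% counting interval 107 to 637). limma-voom on the recovered reads called the same 2 segments and no other gene. Both calls were lost when any of the 4 libraries of set 076 was left out, with adjusted p of 0.0784 to 0.831, while the log2 fold changes stayed at -9.37 to -8.65 for Ighv2-9-1 and -7.85 to -7.22 for Igkv1-110. Each such fit leaves 1 library in a group, which is assumed to vary like the others. The calls were also lost at a pseudocount of 0.1 (0.395 for Ighv2-9-1 and 0.511 for Igkv1-110). Over 19 alternatives each was called in 13. The lowest adjusted p came from limma on TPM as deposited, at 1.4e-71 for Ighv2-9-1 and 1.7e-56 for Igkv1-110. Values this small cannot reflect the spread of 2 libraries a side and are given no weight. Both segments were at 0 in all 4 libraries of set 045, which share the estimate of the spread. These zeros add no spread to the estimate for either segment. How far they alter the SE and the p-values was not separated from other changes of the fit. On set 076 alone the smallest limma adjusted p over all genes was 0.0013, against 0.0060 in the main fit. Ighv2-9-1 was also at 0 in both antibody libraries of set 076, so its own spread came from the 2 IgG libraries alone. Both segments passed the filter only through those IgG libraries, so their 2 calls are likewise a description. On set 076 alone 7 segments were called, these 2 among them.

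The other segments that lay lower in both antibody libraries did not pass. Igkv1-117 stood at -8.06 on the log2 scale (SE 1.35, limma adjusted p = 0.551). Its 29.8 and 0 scaled TPM in C1IA and C2IA of set 045 enter this SE, whereas Igkv1-110 was at 0 throughout that set. A call for Igkv1-110 and not for Igkv1-117 thus shows no difference between them. Ighv1-82 had -7.34 (SE 0.90) and Iglv2 -7.26 (SE 0.90), both at adjusted p = 0.184. Of 19 alternatives Iglv2 was called in 6, Igkv1-117 in 5 and Ighv1-82 in 3, and on set 076 alone Igkv1-117 and Iglv2 were called. Igkv1-135 had -8.66 (SE 2.10), Iglv1 -6.45 (SE 1.79) and Igkv19-93 -6.36 (SE 1.40), each with an adjusted p of 1.00. With each library left out in turn these log2 values ranged from -10.18 to -7.14 for Igkv1-135, -7.81 to -5.09 for Iglv1, -8.91 to -3.80 for Igkv19-93, -8.77 to -5.90 for Ighv1-82, -7.79 to -6.72 for Iglv2 and -8.112 to -8.003 for Igkv1-117. The reads behind them gave IgG over antibody ratios of 387 for Igkv1-117 (95% counting interval 151 to 1423), 300 for Igkv1-135 (145 to 747), 129 for Ighv1-82 (59.0 to 352), 372 for Iglv2 (66.3 to 14716, on 1 antibody read) and 128 for Iglv1 (76.3 to 235). These intervals leave out the spread between libraries, which limma includes.

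Over the 128 tested members, 99 lay lower and 22 higher with the antibody within set 076, with a median log2 fold change of -2.35, against 0.00 over all tested genes. At an unadjusted p under 0.05 stood 49 members, all lower, among 163 genes. The groups did not overlap, with the antibody lower, for 59 of the 128 members (46.1%), where 11.0% of all tested genes did so. With the antibody higher this held for 4 members (3.12%), against 7.99% of all tested genes. These were Igkv4-86, Igkv3-2, Ighv1-9 and Ighv8-8, named for these values and each with 13 reads or fewer in any library. Ighv8-8, the member of smallest p in that direction, had 4 and 2 reads in D1IA and D2IA, against 0 and 0 in G1IA and G2IA, 2.15 on the log2 scale (SE 1.20, limma adjusted p = 1.00).

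Within set 045 limma called 0 of 18170 genes in either direction (0.0%), with 1452 genes at an unadjusted p under 0.05, 3 of them members, and a smallest adjusted p of 0.0626; limma-voom also called 0. Ighv9-3 had 0 and 0 reads with the antibody, against 8 and 4 with IgG, a log2 fold change of -4.95 (SE 1.04, adjusted p = 0.466). Ighv1-69 went the other way with 1 and 1 reads, against 0 and 0, a log2 fold change of 3.49 (SE 0.93, adjusted p = 0.544). The groups of set 045 did not overlap for 5 tested members with the antibody lower (3.91%, against 20.8% of all tested genes) and for 2 with it higher (1.56%, against 14.2%). Only 66 of the 178 members had a read in any library of set 045. A member at 0 throughout the set cannot be counted here, so these shares are limited by depth. Igkv19-93 and Ighv1-26 were the members lower with the antibody, without overlap, in both sets, on 1 and 2 IgG reads each in set 045. The share of all genes that did so in both sets was not counted, so these 2 are named for their values only.

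Over both sets with the set as a term, limma called 0 of 18170 genes in either direction (0.0%), with 278 genes and 33 members at an unadjusted p under 0.05, the members all lower; limma-voom called 0. Igkv19-93 had the smallest p among the members, at -4.70 on the log2 scale (SE 1.10, limma adjusted p = 1.00). The median over the 128 tested members was -1.53, against -0.07 over all genes. The difference of the antibody effect between the sets was tested by an interaction term, which called 0 genes (0.0%), with 924 genes and 34 members at an unadjusted p under 0.05; limma-voom called 0 here too. Ighv2-9-1 and Igkv1-110 had the smallest p, both at an adjusted p of 0.0680, so the calls of set 076 were not shown to differ from set 045. Over 18 alternatives of this term each passed in 4, TPM as deposited among them. The limma adjusted p of 9.9e-35 for Ighv2-9-1 in that setting cannot reflect the spread of so few libraries and is given no weight.

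Profiles over the 8 libraries, compared on log2(scaled TPM + 1), gave Pearson r = 1.00 for Igkv1-88 and Ighv4-1, which were seen in C1IA of set 045 alone, with 41 and 24 reads. Any 2 segments seen in the same library alone give this value by construction, and 323 pairs of members did so. Only segments named by rule were compared, without those named after their values were seen. Among them, Igkv1-110 with Ighv1-82 (r = 0.99) and with Ighv2-9-1 (r = 0.97) had the highest values after that pair. The values of Igkv1-110 rest largely on the gap between the 2 IgG libraries of set 076 and the rest. These pairs join heavy and kappa segments, which share little sequence: Igkv1-110 and Ighv2-9-1 were 47.2% identical over their coding bases.

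Position along the locus was also described. The kappa V segments span 3148 kb and the heavy V segments 2437 kb. Segments beyond the median row, on the side far from the constant genes, took 45% and 44.7% of kappa reads in D1IA and D2IA, against 68.2% in each of G1IA and G2IA. Igkv1-135, Igkv1-117, Igkv1-110 and Igkv2-137 lie in this far part. For heavy reads the far part took 42.3% and 57.1% in the antibody libraries, against 64.1% and 49.8% in the IgG libraries, which overlapped. By annotated class, 166 of 216 rows annotated as V genes, 11 of 130 V pseudogenes and 1 of 2 rows of the class IG_LV_gene were members. Pseudogenes took at most 0.245% of V reads in any library.

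Near copies limit which segment a read can be given to. Igkv1-117 and Igkv1-110 were 97.2% identical over their coding bases, against 77.4% and 77.9% for Igkv1-135 with each, and Iglv1 and Iglv2 were 96.9% identical. Igkv1-135 had a near copy of its own, Igkv1-133, at 96.7%. Igkv5-43, the leader of D2IA of set 076, was 98.6% identical to Igkv5-45, and Ighv1-52 was 98.6% identical to Ighv1-61. The closest segment to Ighv2-9-1 was Ighv2-6-8 at 94.6%. Among all 50-base windows of a member's exons, a median of 75.9% occurred in no other V row, and 24 members had less than 50% of such windows. With 100-base windows the median was 100% and 4 members lay under 50%. For Igkv1-117 and Igkv1-110 the unique share was 50.1% and 49.1% at 50 bases and 83.9% and 83.8% at 100 bases. For Igkv5-43 it was 48.8% at 50 bases and 66.4% at 100 bases. The sources used here do not say how reads with several matches were counted. The split of reads between near copies is therefore uncertain, while the sum over such a pair is less affected.

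Summed over their list, constant genes lay lower in both antibody libraries of set 076, and none passed the test. Kappa V segments summed to 0.968 and 1.43 times the TPM of Igkc, the kappa constant gene, in D1IA and D2IA of set 076, against 1.23 and 1.10 times in G1IA and G2IA. Heavy V segments summed to 0.732 and 0.973 times the heavy constant genes in the antibody libraries, against 0.935 and 0.864 times in the IgG libraries. In both cases the ratios of the groups overlapped. Lambda V segments summed to 0.833 and 0.399 times the lambda constant genes in the antibody libraries, from 11 and 5 V reads, against 1.23 and 0.971 times in the IgG libraries, and these did not overlap. Igkc lay at 294 and 490 scaled TPM with the antibody, against 4303 and 8288 with IgG, and Ighm, the IgM constant gene, at 187 and 347, against 3242 and 3286. Jchain, whose product links IgM or IgA units, had 25.2 and 58.9 scaled TPM, against 722 and 1054, and Mzb1, a chaperone of antibody-secreting cells, had 2.70 and 4.02, against 42.2 and 32.1. None of the 4 was called within set 076 (limma adjusted p = 1.00 for each).

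Marker lists of B lineage and other cells were followed beside the segments. The 12 constant genes summed to 512 and 959 scaled TPM in the antibody libraries of set 076, against 9272 and 12094 in the IgG libraries, and 6 of 11 tested had an unadjusted p under 0.05, 5 lower (Igkc, Ighm, Iglc1, Iglc2 and Iglc3) and 1 higher. The higher one was Igha, the IgA constant gene, named for its value, with 4.42 and 98.4 scaled TPM in the antibody libraries, against 0.523 and 0 in the IgG libraries (limma adjusted p = 1.00). The plasma cell list summed to 232 and 385 scaled TPM, against 1203 and 1397, with 3 of 11 tested at that level, all lower (Jchain, Mzb1 and Tnfrsf17). The list of B cell surface and identity genes summed to 17.3 and 24.5 scaled TPM, against 57.2 and 27.6, with 0 of 8. The plasma cell sums did not overlap between the groups, but Jchain made up most of the IgG sums. Without Jchain the list summed to 206.8 and 326.1 scaled TPM, against 481.7 and 342.7. Single genes of the list overlapped, among them Xbp1 with 95.7 and 144 scaled TPM, against 138 and 114, and Prdm1 with 2.22 and 4.89, against 7.62 and 2.37, both regulators of plasma cell identity. The B cell sums lay close together in D2IA and G2IA. T cell genes summed to 249 and 46.2, against 161 and 11.2, recombination and germinal centre genes to 208 and 82.0, against 147 and 41.3, and lymph node stroma genes to 107 and 198, against 209 and 266. The recombination and the T cell sums ranked these libraries alike, from D1IA through G1IA and D2IA down to G2IA. Which cells the recombination genes came from was not tested. Pre-B genes summed to 0.731 and 0, against 0.215 and 0. Of the 4 tested skeletal muscle genes 3 stood at an unadjusted p under 0.05 within set 076, all higher with the antibody, and of the 4 smooth muscle genes 0 did. limma called 0 members of any of the 9 lists in any of the 4 comparisons, and limma-voom also called 0. At an unadjusted p under 0.05 stood 12 of the 54 tested list members within set 076, 4 within set 045, 10 over both sets and 6 for the difference between the sets. Of all 18170 tested genes, 163, 1452, 278 and 924 did so, in the same order. Within set 045 the share of list members was thus near that of all genes. The part of any of these cells in the V segment differences was not tested.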

How the data were processed

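Rows of V segments were taken from the gene table the authors deposited, which gives TPM per gene for 8 libraries; the total RNA was depleted of ribosomal RNA and made into directional libraries, per the labels' protocols. Not given in the sources used here: the aligner, the counter and the handling of multiply matching reads. The submitters' processing notes list hg19, a human build, while the identifiers are of mouse genes, so coordinates come from the GENCODE M21 annotation of GRCm38. The columns name the group but not the labels' sample numbers.

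TPM was multiplied by exon length and divided by each library's step, which gave whole reads, within 0.0001 reads, for 100% of 25386 genes above 0, and for all 178 members with the annotated length. Scaled TPM is TPM rescaled so that nuclear protein-coding genes sum to 1000000 per library. limma 3.58.1 in R 4.3.3 (trend and robust) was run on log2(scaled TPM + 1) for genes whose mean reached 1, two-sided, with Benjamini-Hochberg adjustment over all genes and a threshold of 0.05. Comparisons over both sets had the set as a term (5 residual degrees of freedom); those within a set and between sets came from a fit with 4 means (4 residual degrees of freedom). The fits were also run on simulated counts, with changes placed in both sets and in genes with many reads. That simulation was not set up for segments at 0 throughout a set, and their calls are not judged by it. A log2 fold change on this scale understates the change of low genes. Wilson intervals and exact intervals of ratios are at 95% and cover counting error only, and the floor was 3 reads over a group's 2 libraries. Shares are of reads, not per length. Python 3.11.15, SciPy 1.17.1 and Biopython 1.88 served for the rest. DNA stretches are from GRCm38.

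Alternatives were TPM as deposited, no set term, other pseudocounts and filters, limma-voom, array weights, each library left out, other diversity measures and V families in place of segments. A further fit left out D2IA and C1IA of set 045 together, for their Xist level. Named are up to 6 leading segments per locus, the leader of each locus in each library, called members, the member of smallest p per comparison and direction, and the 3 closest profiles. Igkv1-117, Igkv2-137, Igkv4-51, Igkv4-86, Igkv3-2, Ighv3-8, Ighv7-1, Ighv1-9 and others in the heat map outside that rule were named after their values were seen. So were the marker genes named beside Igkc, Ighm, Jchain and Mzb1. The members, the marker lists and the tests were chosen with earlier results of these data known.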

Additional observations from a re-analysis of the deposited data

Results flagged for a closer look

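In groups of 4 libraries, 34 sets of values were examined for a library far from the other 3, and 8 stood out. The cutoff flags about 1 in 20 sets of normally distributed values, a rate that need not hold here. A segment seen in a single library of a group stands out by construction. Some of the segments examined were also chosen after their values were seen, so the 8 are a description. The groups pool both library sets, so a library of set 076 can stand out through its set alone.

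Among antibody libraries, D1IA of set 045 had the lowest kappa share, at 48.65% of 37 V reads. D1IA of set 076 was the antibody library with Ighv1-82 reads, at 6.325 scaled TPM from 6 reads, with the other 3 at 0. D2IA of set 076 lay far above the others for Igkv5-43, at 268.8 scaled TPM, and for Ighv1-58, at 142.6 scaled TPM.

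Among IgG libraries, G1IA of set 076 lay far above the others for Iglv1, at 1805 scaled TPM, where G2IA had 273. G2IA of set 076 lay far above the others for Igkv19-93, at 1889 scaled TPM, for Igkv4-51, at 1405 scaled TPM with 0 elsewhere, and for Ighv1-58, at 31.14 scaled TPM, where G1IA had 2.65.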

How the results depend on the processing

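Within set 076, where 2 genes were called, both V segments, the counts over all genes and over V segments were 78 and 32 with TPM as deposited, 9 and 8 at a pseudocount of 5, 7 and 7 with array weights, and 0 and 0 at a pseudocount of 0.1. Settings chosen after seeing the data gave 9 and 7 on set 076 alone, 13 and 5 with each gene's own variance, and 0 and 0 without D1IA of set 076 and C1IA of set 045. Leaving out each library in turn gave 0 to 4 for both counts, with 0 whenever D1IA, D2IA, G1IA or G2IA of set 076 was left out and 4 without C1IA or C2IA of set 045. Over both sets 1 gene was called with TPM as deposited and the set as a term. Within set 045, 1 gene was called at a pseudocount of 0.1, 15 with each gene's own variance, and 0 to 65 with each library left out, the highest without D2IA and 1 without D1IA; no V segment was among them. The difference between the sets gave 134 genes and 29 V segments with TPM as deposited, 3 and 3 at a pseudocount of 5 and 18 and 4 with each gene's own variance. With each library left out it gave 0 to 5 genes and 0 to 2 V segments, the highest without D2IA of set 045. The cause of these moves was not tested.

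The summed V level in set 076, -3.94 on the log2 scale (antibody over IgG), stayed at -4.58 to -3.50 with each library left out, the lowest without D2IA. In set 045 it ranged from -3.26 to 1.51, and it turned to 1.51 without C1IA. The effective number in set 076 averaged 12.4 families with the antibody and 10.7 families with IgG. By inverse Simpson over segments, D1IA and D2IA had 25.8 and 10.2, against 14.3 and 16.5 in G1IA and G2IA. The IgG libraries, which averaged 15.4, lay between the antibody libraries on this measure. In the antibody libraries of set 045, segments with at least 5 reads summed over the 8 libraries gave mean shares of 42.4% kappa and 22.4% lambda. With all segments, D1IA and D2IA of that set had 48.6% and 63.6% kappa and 10.8% and 18.2% lambda. These shares rest on 37 and 11 V reads. Expected numbers at common depths stand among the report's values and were not run as an alternative of the effective number. The search for the promoter octamer and its alternative with a mismatch were not run, since the promoter table used here holds no V segment.

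No paired analysis was possible because the columns do not carry the labels' sample numbers, so no replicate block could be fitted. Depth limits set 045 most: with 11 to 203 V reads per library, a segment absent there may lie under the limit of detection.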
